A study of Coturnix japonica with 15 samples.

Results

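The solvent group consisted of 5 liver libraries, replicates 1 to 5, of the 15 libraries in a study of ethinylestradiol in Japanese quail (Coturnix japonica). They were chosen by their label alone, which gives dimethyl sulfoxide (DMSO), the solvent, as the treatment. Left liver lobes were taken on embryonic day 9. Before incubation, at 37 °C and 60% humidity, a volume of 10 µl had been injected through the air cell, so the solvent libraries describe DMSO-injected eggs, and no group of uninjected eggs is analysed here. The other groups had received 3.33 or 33.3 µg of ethinylestradiol, a synthetic oestrogen, per g of egg, with 5 libraries each. The labels give neither sex nor pooling, nor whether the libraries are of different embryos. The p-values therefore rest only on the spread between these samples, which may be technical.

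The liver grows from the foregut endoderm into mesenchyme next to the heart, and shares its origin with the pancreas. Its hepatocytes secrete albumin, transferrin, lipoproteins, clotting factors and protease inhibitors into the blood, while endothelial cells, stellate cells, macrophages and bile duct cells make up most of the remainder. In a laying hen, oestrogen turns the liver to the production of yolk proteins. In the embryo, blood forms first in the yolk sac, and the liver carries that blood in its sinusoids.

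The 4 genes given as hepatocyte markers were all high. ALB, albumin (NCBI gene ID 107313382, chromosome 4), had 122741, 105267, 136561, 113490 and 102330 counts per 1000000 (CPM) in replicates 1 to 5. APOB, the structural protein of very low density lipoprotein (107312270, chromosome 3), had 7590, 6816, 7775, 6119 and 6252 CPM. Replicate 3 was the highest library for both. FGB, the fibrinogen beta chain (107313034, chromosome 4), had 5038, 4750, 4298, 7997 and 5371 CPM. TF, transferrin, the iron carrier of plasma (107317970, chromosome 9), had 24618, 29260, 31926, 36332 and 36810 CPM. All 4 were among the 25 genes with most counts, and replicate 4 stood above the others for FGB, while TF was lowest in replicate 1.

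The 5 libraries held 21726180 to 32140105 estimated counts and 12558 to 12709 gene IDs at 1 CPM or more, and 11916 of the 20308 IDs reached 1 CPM in every one. No count fell on 1668 IDs in any solvent library. Replicate 3 lay farthest from the others over all genes and was low on chromosome Z. Some islet transcripts were high in replicate 2, and some heart transcripts in replicates 1 and 3. Replicate 5 was high in interferon-induced genes, so levels are given library by library. CPM values carry no correction for transcript length, so they are compared between libraries, and shares of the counts mix the number of transcripts with their length.

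A small number of genes held much of the counts. Albumin took 12.3%, 10.7%, 13.3%, 11.1% and 10.2% of the counts in replicates 1 to 5 (mean 11.5% ± 1.27, SD, n = 5). The 95% Wilson interval of the highest share was 13.29% to 13.32%, which covers counting error only, so the libraries differed in albumin by far more than counting error. The 25 genes with most counts in each library, chosen library by library, held 30.3% ± 1.34 together. When genes were ranked by mean share, 214 held 50% of the counts. Without albumin, 352 genes were needed to hold 50% of what was left.

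Plasma proteins made up 9 of the 25 genes with the largest mean CPM. Beside the 4 markers they were APOA1, the main protein of high density lipoprotein (6873 ± 719 CPM), ITIH2, an inter-alpha-trypsin inhibitor heavy chain (5721 ± 466), the fibrinogen alpha chain FGA (5652 ± 1224), the gamma chain FGG (4296 ± 1118), and GC, the vitamin D carrier (4542 ± 639). FTH1, the heavy chain of the iron store ferritin, averaged 4571 ± 574 CPM. The mitochondrial genes COX1, COX2, COX3, CYTB, ND1, ND4, ND5 and ATP6 were also in the list, and the 13 protein genes of the mitochondrial genome took 6.95% ± 0.435 of the counts. Replicate 1 was lowest in this sum, with 62530 CPM, while the others had 70731 to 73511 CPM.

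Sugar metabolism supplied GAPDH (13151 ± 1935 CPM), LDHB, a lactate dehydrogenase (6952 ± 591), and ENO1, enolase (5601 ± 867). GAPDH had 10297, 12862, 15543, 12918 and 14135 CPM in replicates 1 to 5, with replicate 1 lowest and replicate 3 highest. EEF1A1, the elongation factor that brings aminoacyl-tRNA to the ribosome, was highest in replicate 3 (6782 CPM), the others having 4952 to 5367 CPM. The loci LOC107310113 (6210 ± 554 CPM) and LOC107311487 (4255 ± 169 CPM) carry a number in place of a symbol. The nearest genes outside the list of 25 were LOC107315236 at 3866 CPM and LOC107306278 at 3483 CPM, below ND1 at 4140 CPM.

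**Figure D1:**
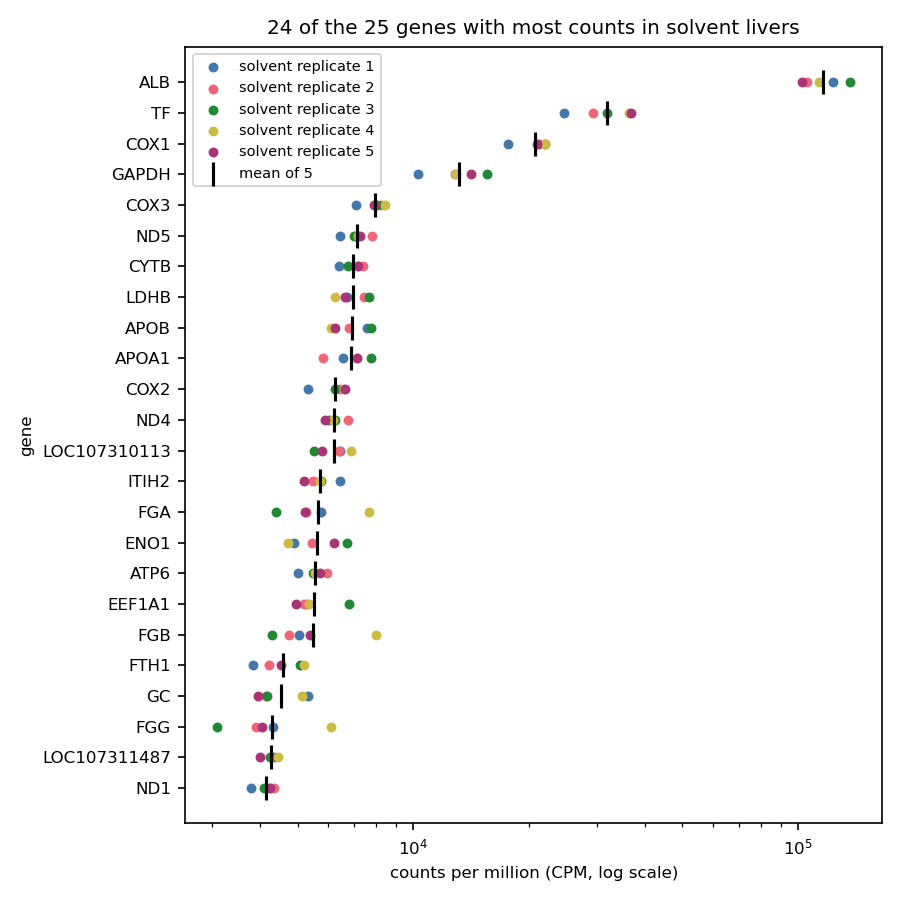
CPM (log axis) of 24 of the 25 genes with the largest mean in the 5 solvent libraries, 1 row per gene, 1 coloured point per library and a bar at the mean. ALB stands to the right of all others, TF spreads from 24618 to 36810 CPM, and FGA, FGB and FGG each have replicate 4 as their highest point.

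The lists of secreted proteins and liver transcription factors were present in full, as far as they were matched. All 32 matched plasma protein genes and all 19 matched liver transcription factors had at least 1 CPM in every library. The plasma protein genes held 21.0% ± 1.19 of the counts, and their median SD of log2(CPM + 1) was 0.22, against 0.17 over all 10204 genes with a mean of at least 5 CPM. AFP and TTR, the classical fetal and thyroid hormone carriers, were not analysed here, since the gene table pairs no ID with those symbols.

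Some members of the list were uneven. C3, the central complement component, had 341, 309, 183, 661 and 804 CPM in replicates 1 to 5. AHSG, fetuin A, had 296, 693, 316, 324 and 224 CPM, with replicate 2 above the rest. HPX, the haem carrier hemopexin, had 4.70, 6.84, 5.62, 35.1 and 20.8 CPM, so that replicates 4 and 5 stood above the other 3.

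The liver transcription factors were the steadiest of the hepatocyte lists, with a median SD of 0.17. CEBPA, a bZIP factor of hepatocyte differentiation, averaged 364 ± 55.1 CPM. PROX1, the homeobox factor of early hepatoblasts, averaged 191 ± 31.1 CPM, PPARA, the fatty acid receptor, 113 ± 26.7 CPM, and XBP1, a regulator of secretory capacity, 111 ± 13.5 CPM. HNF4A, a nuclear receptor that defines hepatocytes, averaged 55.3 ± 10.9 CPM.

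Enzymes of amino acid breakdown were present, while the matched genes of the urea cycle had few counts. Of 27 listed genes 16 were matched, the others, ASL of the urea cycle and PCK2, FBP1 and G6PC1 among them, not being analysed here. Of the 16, 13 had at least 1 CPM in every library. HPD, a tyrosine-degrading dioxygenase (797 ± 105 CPM), GLUL, glutamine synthetase (1254 ± 158), and GAMT, the last enzyme of creatine synthesis (875 ± 55.9), were among them. The urea cycle gene CPS1 had 1.34, 2.89, 6.95, 2.63 and 2.50 CPM, OTC averaged 0.248 ± 0.0569 CPM and ASS1 0.226 ± 0.161 CPM. Birds excrete uric acid, and XDH, the enzyme that forms it, averaged 70.0 ± 13.8 CPM. PCK1, the cytosolic enzyme that starts gluconeogenesis, was at 0.789 ± 0.572 CPM. TAT, tyrosine aminotransferase, had 181, 251, 450, 162 and 201 CPM, with replicate 3 highest.

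Of 19 matched genes of lipid synthesis and handling, 18 reached 1 CPM in every library. CPT1A, which admits fatty acids to mitochondria, had 888, 885, 1039, 1050 and 742 CPM, and LIPC, hepatic lipase, averaged 1483 ± 168 CPM. FASN, the fatty acid synthase, averaged 57.6 ± 12.4 CPM, DGAT2, which completes triglycerides, 2.34 ± 0.757 CPM, and SCD, the stearoyl-CoA desaturase, 0.559 ± 0.230 CPM. PLIN2, a lipid droplet coat protein encoded on chromosome Z, had 465, 381, 266, 497 and 468 CPM, lowest in replicate 3.

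Markers of the sinusoidal cells were present throughout. All 19 endothelial genes reached 1 CPM in every library and their summed level was 638 to 776 CPM. STAB1 and STAB2, scavenger receptors of liver sinusoids, averaged 102 ± 9.29 and 67.2 ± 12.4 CPM, and CDH5, the adhesion protein of all endothelium, 101 ± 6.27 CPM. In bulk tissue, fewer cells of a type and less RNA per cell cannot be told apart, here and for every list that follows.

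The stellate and mesenchymal genes, 19 of 20 at 1 CPM throughout, summed to 3540, 2508, 3770, 2780 and 2533 CPM in replicates 1 to 5. RELN, reelin, a stellate cell product, had 888, 576, 720, 410 and 674 CPM. COL1A1, the main chain of type I collagen, had 604, 368, 698, 643 and 338 CPM, and LRAT, which stores vitamin A in stellate cells, was even at 61.1 ± 5.79 CPM. Replicate 3 had the highest value for 13 of the 20 genes and replicate 1 for 5. Over all 10204 genes with a mean of at least 5 CPM, replicate 3 was highest for 22.8% and replicate 1 for 20.9%. Later shares of all genes by highest library are over these 10204, which leave out list genes with a lower mean.

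Mesothelial and bile duct genes were partly present. PODXL, a surface sialomucin (29.8 ± 7.60 CPM), ALDH1A2, a retinoic acid synthase (22.9 ± 7.70), and WT1, a mesothelial transcription factor (14.5 ± 4.61), were among 5 of 6 mesothelial genes at 1 CPM throughout. Replicate 3 was highest in 4 of the 6, against 22.8% of all genes. EPCAM, the epithelial adhesion protein of ducts and hepatoblasts, had 135, 107, 229, 167 and 138 CPM. SOX9, the factor that defines bile duct cells, had 1.53 to 4.14 CPM, and CFTR, their chloride channel, stayed under 1 CPM in every library; 6 of 8 duct genes were present.

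All 11 macrophage genes reached 1 CPM throughout, at a summed 96.9 to 139 CPM. CTSS, a lysosomal protease, averaged 47.9 ± 7.24 CPM, CSF1R, the receptor on which macrophages depend, 10.3 ± 1.97 CPM, and MARCO, a scavenger receptor, 8.35 ± 2.88 CPM.

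Red cell and thrombocyte markers were found in every library. The haemoglobin genes were not analysed here, since no ID is paired with their symbols, and 11 of 27 listed red cell entries were matched, 10 of them at 1 CPM throughout. FECH, which inserts iron into haem, averaged 193 ± 14.3 CPM. SLC4A1, the anion exchanger of the red cell membrane, had 80.5, 71.6, 70.5, 132 and 77.5 CPM. Replicate 4 was highest for 7 of the 11 genes, against 16.9% of all genes, and ANK1, which ties that exchanger to the skeleton, had 61.6 CPM there and 30.6 to 36.3 CPM in the others. TFRC, the transferrin receptor, followed another order, with 56.9, 123, 212, 83.2 and 164 CPM.

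All 8 thrombocyte genes were present, and replicate 4 was highest for 5, against 16.9% of all genes. TUBB1, the tubulin of thrombocytes, had 26.5 CPM in replicate 4 and 12.997 to 15.95 CPM in the others. ITGB3, an integrin that endothelium also makes, had 105, 133, 134, 116 and 182 CPM. The progenitor genes reached 1 CPM throughout for 5 of 8, FLI1 (29.96 ± 2.99 CPM) and CD34 (14.9 ± 4.19 CPM) being also endothelial, while KIT and RUNX1, which mark blood stem cells, averaged 0.840 ± 0.258 and 0.762 ± 0.118 CPM.

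Most matched genes of granulocytes and lymphocytes were low. Of 13 listed granulocyte genes 3 were matched, the 10 others, MPO and S100A9 among them, not being analysed here, and 0 of the 3 reached 1 CPM in every library. Of 10 lymphocyte genes only BLNK, a B cell adaptor, did so (8.97 ± 1.18 CPM). PAX5, the B cell factor, had 0 counts in all 5 libraries, which allows up to 0.0236 CPM at a floor of 3 counts over the group. RAG1, which recombines antigen receptor genes, had 2 counts over the 5 libraries and CD3E, a T cell receptor chain, 1 count, both under that floor. CD7, a lymphocyte surface protein outside the list, is among the variable genes, with 1.93, 3.68, 15.3, 55.9 and 2.35 CPM.

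Genes of neighbouring organs were near the floor apart from a few. Of 8 pancreas genes 0 reached 1 CPM in every library and CPB1, a digestive protease, had 0 counts. Of 10 gut and lung genes the one present throughout was FABP2, the intestinal fatty acid carrier, with 11.6, 2.76, 4.44, 19.1 and 5.86 CPM. Of 8 kidney and gonad genes it was DMRT1, the testis factor encoded on chromosome Z (8.75 ± 1.67 CPM). Among 11 neuronal genes 2 were present throughout, the highest being TUBB3 (15.1 ± 2.59 CPM), a tubulin.

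The libraries also recorded the state of the cells. All 16 cell cycle genes were present, led by CDK1, the kinase of mitotic entry, with 162, 173, 129, 159 and 179 CPM, and TOP2A, a topoisomerase, with 154, 166, 113, 136 and 148 CPM. Replicate 3 was the lowest library for all 16 of them, and the lowest for 3058 of all 10204 genes compared. Immediate early genes, which respond to handling, were low, with FOS at 0.779, 2.50, 1.04, 0.949 and 0.747 CPM and JUN at 11.3 to 22.5 CPM. Chaperones were present in full, HSPD1 of the mitochondrial matrix averaging 1172 ± 80.4 CPM and HSPA8 of the cytosol 807 ± 142 CPM. The 12 clock genes had a median SD of 0.17, as had all genes compared, with TEF averaging 63.1 ± 5.65 CPM and CRY1, a repressor of the clock, 52.7 ± 1.94 CPM, and NFIL3, a factor of clock output, ran from 20.5 CPM in replicate 3 to 33.6 CPM in replicate 2.

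Receptors and enzymes of hormone action were mostly present, with 16 of 19 genes at 1 CPM throughout. GHR, the growth hormone receptor, which lies on chromosome Z, averaged 357 ± 17.8 CPM, while IGF1, the growth factor it induces after hatching, averaged 0.651 ± 0.463 CPM and IGF2 30.3 ± 6.40 CPM. DIO3, which inactivates thyroid hormone, had 253, 293, 372, 273 and 171 CPM, and DIO1, which can activate it, 87.2, 75.7, 73.9, 49.7 and 89.3 CPM. ESR1, the oestrogen receptor alpha, had 15.9, 15.6, 39.8, 14.9 and 25.2 CPM, highest in replicate 3, and ESR2 averaged 1.20 ± 0.281 CPM. Over all lists, 258 of 333 matched genes reached 1 CPM in every library.

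**Figure D2:**
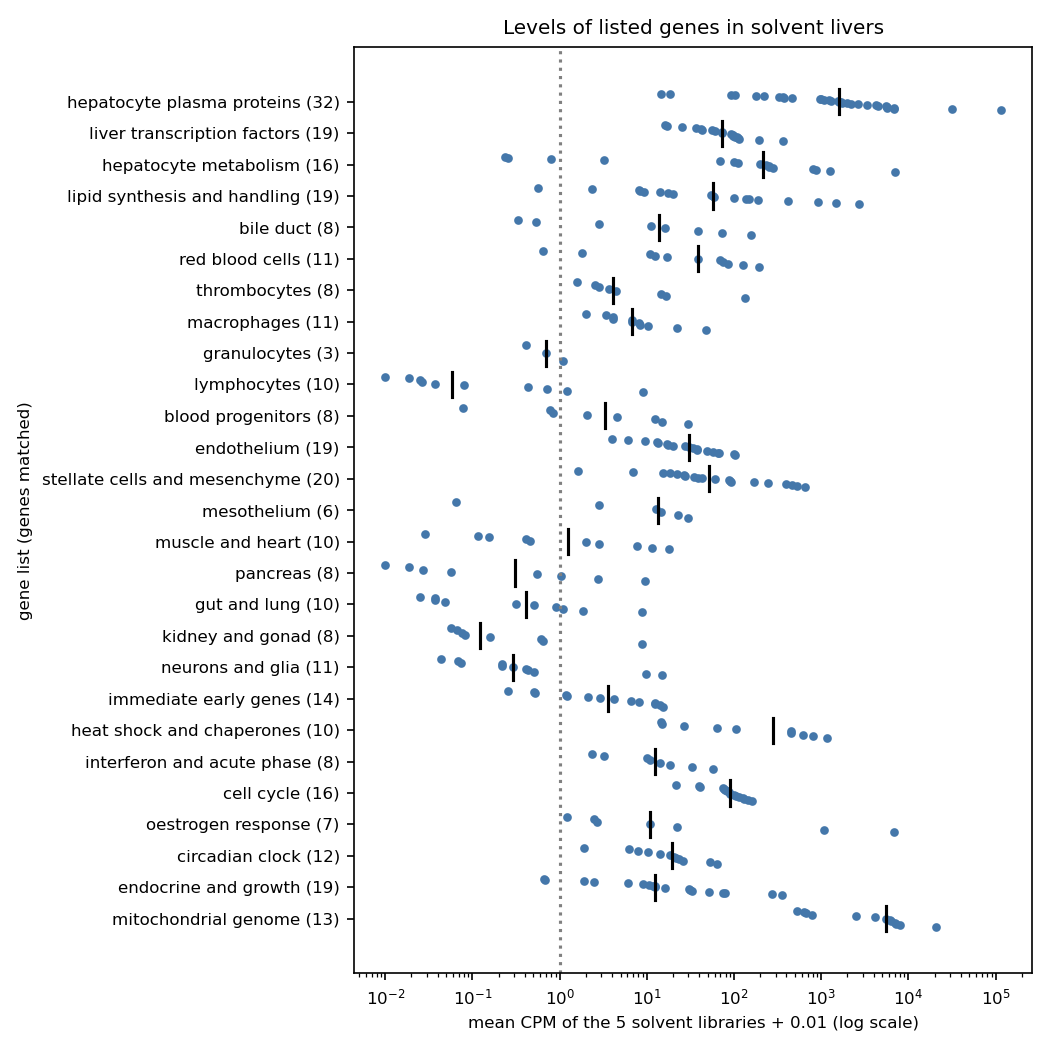
Mean level of each matched list gene over the 5 solvent libraries, as CPM plus 0.01 on a log axis, 1 row per gene list with the number of matched genes, a bar at the median gene and a dotted line at 1 CPM. Plasma protein genes lie furthest right among the nuclear lists, and the medians of the granulocyte, lymphocyte, pancreas, gut and lung, kidney and gonad, and neuron lists lie left of 1 CPM.

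Most genes differed little between the 5 libraries and a small number differed greatly. Of 10204 genes with a mean of at least 5 CPM, 101 (0.990%) had an SD of log2(CPM + 1) over 1, and the median SD was 0.17. The median SD was 0.20 at 3.33 µg/g and 0.18 at 33.3 µg/g, where 103 and 82 of the same genes exceeded 1. At the even end stood MFF, a mitochondrial fission factor, with 24.9, 25.1, 24.9, 25.2 and 25.1 CPM, and DNAJA2, a cochaperone, with 96.9, 96.1, 94.6, 96.6 and 97.1 CPM. Replicate 3 was the farthest from the others: its 4 pairings had a median absolute log2 difference of 0.20 to 0.23 per gene, and the other 6 pairings 0.15 to 0.18.

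The 100 genes with the largest SD were then described, chosen for their spread and so given no test of it. Their SD ran from 1.0008 to 2.97, with PHOSPHO1 and COL11A1 just inside at 1.0029 and 1.0008, and LOC107307355 and B3GALT5 just outside at 1.00005 and 0.998. They had a median level of 13.8 CPM, against 27.4 CPM over all 10204 genes, and counting error would give them an SD of at most 0.11. Of the 100, 54 had a symbol, 41 a locus number and 5 IDs no match, and 4 lay on chromosome Z, which holds 4.30% of the genes compared. Replicate 4 was the highest library for 32 of them, against 16.9% of all 10204 genes.

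Some of these genes, such as SUGCT and ABCA13, had several CPM or more in some libraries and were close to off in others. SUN3, a nuclear envelope protein of sperm, had 1.59, 1.62, 20.7, 73.4 and 1.57 CPM. SUGCT, a mitochondrial CoA transferase, had 0.280, 0.263, 25.7, 0.216 and 14.5 CPM, and ABCA13, an ABC transporter, 0.0312, 6.97, 9.50, 0 and 12.6 CPM. NEBL, an actin-binding nebulin relative, had 93.9, 8.68, 10.6, 188 and 8.40 CPM, and PPDPFL 268, 19.1, 42.7, 324 and 24.01 CPM, both high in replicates 1 and 4.

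ABCA13 and SUGCT split the dosed libraries as well, while SUN3 (3.84 to 92.8 CPM) and PPDPFL (29.1 to 125 CPM) stayed over 1 CPM in all 10. ABCA13 was over 1 CPM in 5 of the 10 dosed libraries and at most 0.126 CPM in the other 5, and SUGCT was over 5 CPM in 8 and at most 0.530 CPM in the remaining ones. NEBL reached 400 CPM in replicate 2 at 3.33 µg/g, and was 3.60 to 74.3 CPM in the other dosed libraries. An ID with no match in the gene table was nearly absent from replicate 2 (0.0877 CPM), the other 4 having 19.3 to 37.1 CPM.

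Of the 100 genes, 88 were within the 10% of genes with the largest SD in the 3.33 µg/g libraries and 84 in the 33.3 µg/g libraries, which did not choose them, against a background of 10% by construction. The part that the lower median level of these genes has in those counts was not tested. With a minimum of 20 CPM the 100 genes were chosen anew, and the counts were 81 and 81. At that minimum only 36 genes had an SD over 1, so that set differs from the 100 described here. An SD over 1 at both doses as well as with solvent was found for 19.

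Neighbouring genes could vary together. Neighbours are genes next to each other on the reference assembly among those with a mean of at least 5 CPM. Genes under that level can lie between them. Among the 100, 4 pairs were neighbours in this sense. In all 4 both genes were highest in the same library, as in 23.7% of 9538 neighbour pairs overall. GM2A, a lysosomal lipid activator on chromosome 13, had 715, 27.8, 144, 67.8 and 68.5 CPM, and its neighbour CCDC69 22.2, 1.009, 6.66, 4.19 and 3.44 CPM. ORM2, an acute phase carrier on chromosome 17, had 21.2, 5.97, 3.83, 81.9 and 49.9 CPM, beside LOC107321781 with 8.13, 16.3, 33.8, 52.1 and 50.01 CPM. Overlapping or near-identical genes can share reads in such pairs, which was not tested.

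**Figure D3:**
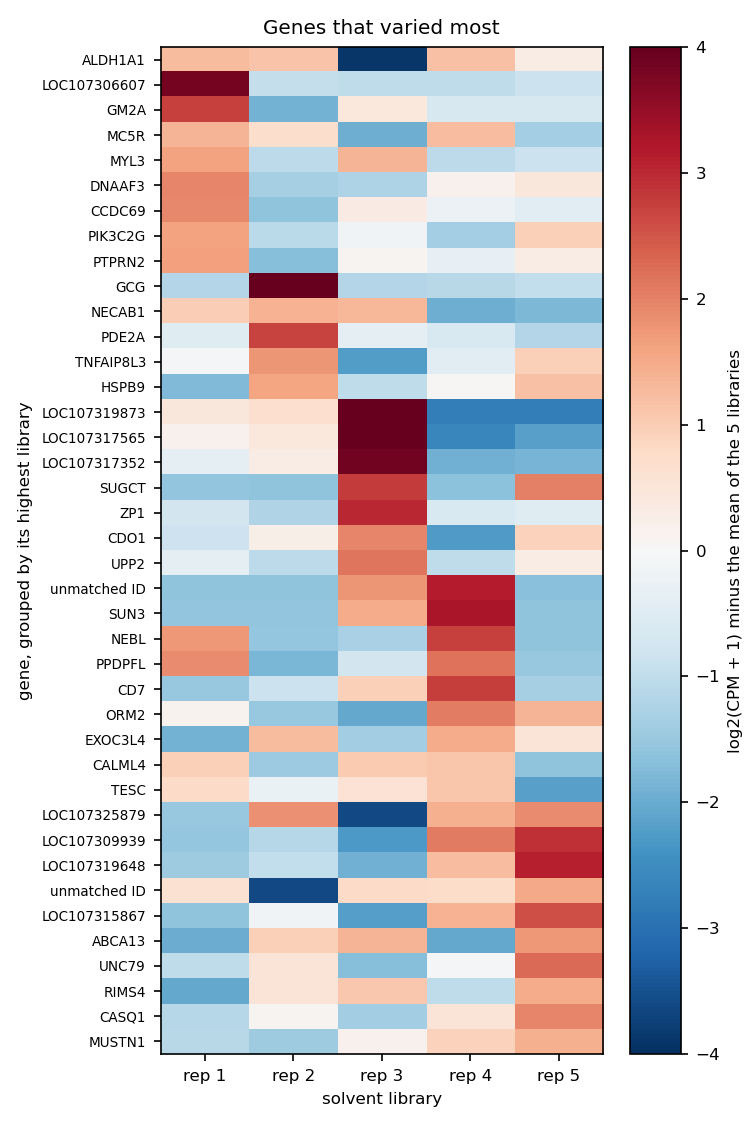
Colour map of the 40 named genes with the largest spread, 30 with a symbol and 10 without, as log2(CPM + 1) minus the mean of the 5 solvent libraries, in columns by replicate and rows grouped by the highest library. Red cells are above and blue cells below the gene's mean. Many genes are high in 1 or 2 libraries, such as GCG in replicate 2, ZP1 in replicate 3 and SUN3 in replicates 3 and 4.

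Small sets of genes with a known cell type were high in 1 or 2 of the solvent libraries, and those outside the naming rule were chosen after their values were seen. In replicate 2, GCG, glucagon of the pancreatic islet, had 47.5 CPM, and 0, 0, 0.0432 and 0.149 CPM in replicates 1, 3, 4 and 5. INS, insulin, had 2.72 CPM there and 0 counts in the other 4, and NKX6-1, a beta cell factor, 3.86 CPM against 0.0747 to 0.189 CPM. GCG, INS and NKX6-1 stayed under 1 CPM in all 10 dosed libraries. SST, somatostatin, which gut endocrine cells also make, did not follow them, with 0.966, 2.68, 1.46, 0.475 and 8.07 CPM. Nor did PDX1 of the pancreas list, which averaged 1.02 CPM both with and without replicate 2. The digestive enzyme genes CEL and CTRL were at or under 0.0877 CPM in replicate 2.

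Some heart genes were high in replicates 1 and 3. Of 10 matched genes of the muscle and heart list, replicate 3 was highest for 8 and replicate 1 for 1. The shares over the 10204 genes with a mean of at least 5 CPM were 22.8% and 20.9%. The median level of the list was 1.23 CPM, below that minimum. Over 14506 tested genes the shares were 24.8% and 19.3%. In every library, 3 of the 10 stayed under 1 CPM. The 2 highest members, MYH11 and ACTA1, did not follow both replicates. MYH11 averaged 18.2 CPM, 13.7 CPM without replicate 1 and 19.5 CPM without replicate 3, so it was raised in replicate 1 and not in replicate 3. ACTA1 averaged 11.3 CPM, and 11.5 CPM without replicate 1. MYL2, a ventricular myosin light chain, had 4.02, 0.0439, 5.53, 0.302 and 0.187 CPM, and MYL3, another light chain, 12.6, 1.18, 10.4, 1.17 and 1.46 CPM. TNNT2, cardiac troponin T, had 5.20, 0.395, 7.37, 0.432 and 0.598 CPM, and ACTC1, cardiac actin, whose reads near-identical actins can share, 12.9, 2.41, 16.4, 3.80 and 3.32 CPM. Replicates 1 and 3 lay above the other 3 libraries for MYL2, MYL3, TNNT2 and ACTC1. This set was put together with the values known, so nothing is read from that. The share of all genes with this order was not counted. Replicate 2 at 3.33 µg/g (10.2 CPM of MYL2) and replicate 1 at 33.3 µg/g (8.68 CPM) were also high, against 0.260 to 1.77 CPM in the other dosed libraries.

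Interferon-induced genes were highest in replicate 5, for all 8 of the list, against 22.9% of all genes. IRF7, which amplifies the interferon response, had 9.35, 9.96, 13.04, 15.7 and 43.3 CPM, and ZNFX1, a sensor of viral RNA, 23.7, 46.3, 23.9, 56.6 and 135 CPM. The list summed to 338 CPM in replicate 5 and 76.4 to 144 CPM in the others. Replicate 4 was the next highest for IRF7 and ZNFX1, and for both it lay closer to replicates 1 to 3 than to replicate 5. For RSAD2 of the same list it lay closer to replicate 5. RSAD2 had 0.530, 1.36, 0.284, 5.65 and 8.33 CPM in replicates 1 to 5.

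Replicates 4 and 5 shared high levels of ORM2, HPX and FABP1, the liver fatty acid carrier, which had 6.14, 3.29, 1.70, 20.9 and 10.0 CPM. The plasma protein genes C3 and ITIH3, an inter-alpha-trypsin inhibitor heavy chain with 189, 139, 79.4, 302 and 399 CPM, were also highest in these libraries. Both were picked with their values known, and other plasma protein genes went other ways. Of the 32 matched, replicates 1 to 5 were highest for 9, 2, 5, 11 and 5. Over all genes, replicate 4 was highest for 16.9% and replicate 5 for 22.9%. HPX had a large spread at 3.33 µg/g as well, where it ran from 2.55 to 45.9 CPM.

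**Figure D4:**
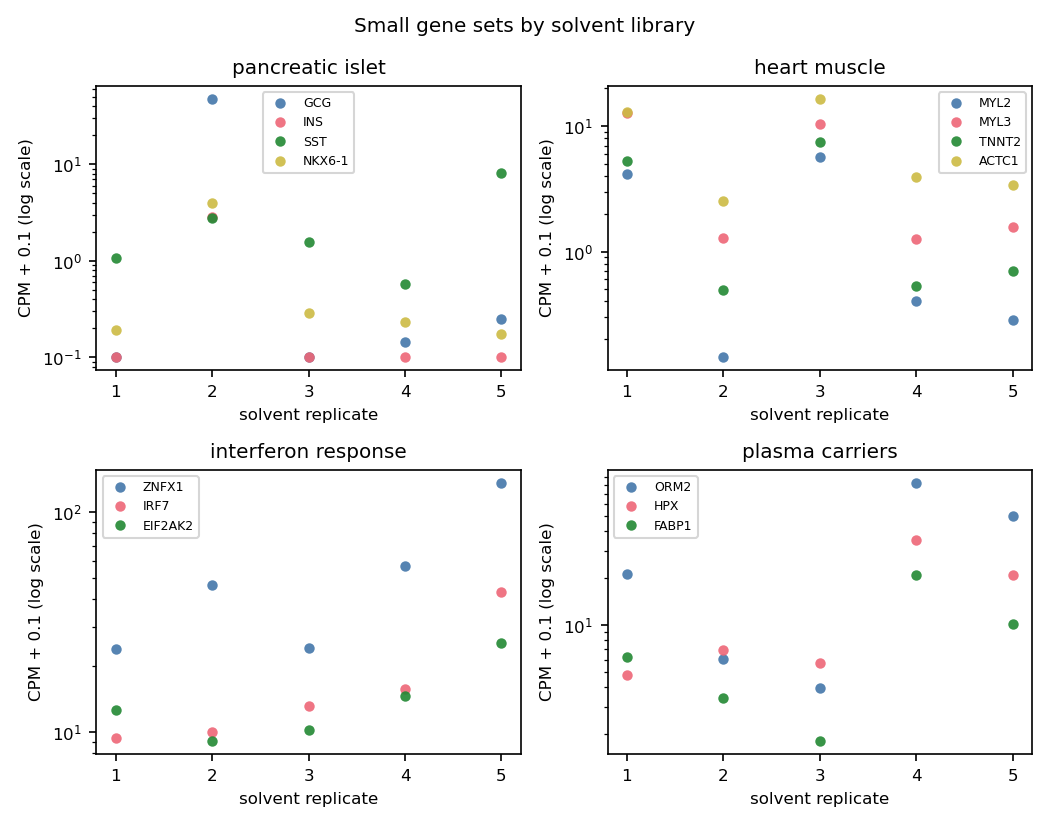
Level of 4 small gene sets in each solvent library, as CPM plus 0.1 on a log axis, with 1 panel per set and 1 coloured point per gene. The islet genes GCG, INS and NKX6-1 peak in replicate 2, the heart genes in replicates 1 and 3, the interferon genes in replicate 5, and the plasma and fatty acid carriers in replicates 4 and 5.

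Chromosome Z set replicate 3 apart. Male birds carry a pair of Z chromosomes and females Z and W, and many Z genes are only partly compensated. Over 439 genes on Z, the median log2(CPM + 1) minus the mean of the 5 libraries was 0.11, 0.08, −0.27, 0.05 and 0.08 in replicates 1 to 5. The 28 other chromosomes ran from −0.07 to 0.05 over all libraries, so that Z in replicate 3 lay outside their range. Set against the mean of all 15 libraries, Z was at −0.25 in solvent replicate 3, at −0.33 in replicates 3 and 4 at 3.33 µg/g, at −0.38 in replicate 1 at 33.3 µg/g and at 0.08 to 0.16 in the remaining 11. The labels do not name sex, and its part in the differences of replicate 3 was not tested.

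One Z gene went far beyond that shift. ALDH1A1, a retinal dehydrogenase, had 672, 608, 17.6, 621 and 342 CPM, an SD of 2.21 on the log2 scale. The 3 dosed libraries with low Z had 173, 223 and 198 CPM of it, against 301 to 674 CPM in the other 7, so that all 10 dosed libraries were above solvent replicate 3. CDO1, a cysteine dioxygenase also on Z, went the other way, with 24.5, 52.6, 176, 8.41 and 85.4 CPM.

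**Figure D5:**
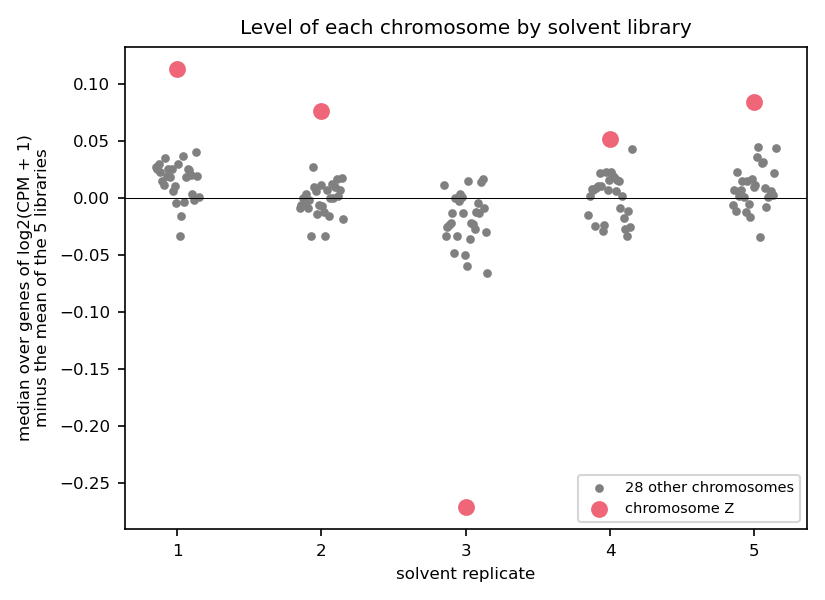
Median over genes of log2(CPM + 1) minus the mean of the 5 solvent libraries, by solvent replicate, with chromosome Z in red and each of 28 other chromosomes in grey. Z lies at −0.27 in replicate 3 and between 0.05 and 0.11 in the other 4, while the grey points stay between −0.07 and 0.05.

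Genes that ethinylestradiol raised were not all silent with solvent, and some were highest in replicate 3. Of 12 listed oestrogen response genes 7 were matched. No ID is paired with the symbols VTG1, VTG2, VTG3, APOV1 and ZP3, so these were not analysed by name. ZP1, an egg coat protein that the liver of laying birds makes, had 2.43, 1.45, 44.8, 2.68 and 3.06 CPM in solvent replicates 1 to 5, 135 to 363 CPM in the 3.33 µg/g libraries and 90.3 to 139 CPM in the 33.3 µg/g libraries, where it missed the threshold (edgeR adjusted p = 0.0586). The locus LOC107319873 on chromosome 1 had 11.7, 13.8, 194, 0.345 and 0.373 CPM with solvent. LOC107317565 and LOC107317352, neighbours on chromosome 8, had 236 and 63.5 CPM in replicate 3 and at most 16.2 and 4.52 CPM in the other solvent libraries.

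Together with LOC107314278 and LOC107319112, these were the 5 loci off chromosome Z that passed the test at both doses and had at least 3 CPM in replicate 3 and 3 times the next solvent library, a rule made after the values were seen. In replicate 3 they stood at 0.954% to 1.89% of their mean at 3.33 µg/g and 0.950% to 2.03% of their mean at 33.3 µg/g, and all 10 dosed libraries were above it for each locus. Of 96 genes called higher at both doses with a count in a solvent library, 33.3% were highest in replicate 3 among the solvent libraries, against 24.8% of 14506 tested genes; the calls use these same solvent libraries. What set these levels was not tested.

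The baseline genes were last compared with the dosed libraries, in edgeR's quasi-likelihood test with Benjamini-Hochberg adjustment over 14508 genes. At 3.33 µg/g, 5 of the 100 genes with most counts in solvent libraries passed an adjusted p of 0.05, against 1.38% of all genes tested, and 30 had an unadjusted p under 0.05. At 33.3 µg/g, 5 passed, against 1.08% of all genes, and 19 had an unadjusted p under 0.05. The share of all genes with an unadjusted p under 0.05 is not given here, so nothing is read from the 30 and 19. The median log2 fold change of the 100 was −0.16 at 3.33 µg/g and −0.06 at 33.3 µg/g, where that of all genes was 0.00 and 0.00. The 100 were chosen for high levels in the same solvent libraries that are the reference here. That choice can lower these medians and bear on the shares that passed, so nothing is read from either. The count at 3.33 µg/g was 3 without solvent replicate 1, 3 or 4 or without replicate 2 or 3 of that dose. The count at 33.3 µg/g was 2 without solvent replicate 1, 2, 4 or 5 or without replicate 2, 3 or 5 of that dose, and 3 without its replicate 1.

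APOB, RBP4, the retinol carrier, and LOC107311487 rose at both doses. APOB was at 22847 ± 4954 CPM at 3.33 µg/g and 19650 ± 2211 CPM at 33.3 µg/g, against 6910 ± 755 CPM with solvent (SD, n = 5 each; log2 fold changes 1.72 and 1.51, edgeR adjusted p = 2.49e-05 and 0.000102). RBP4 was at 1849 ± 216 and 1741 ± 320 CPM at the 2 doses, against 1071 ± 83.0 CPM with solvent. LOC107311487 was at 6294 ± 882 and 6630 ± 1058 CPM, against 4255 ± 169 CPM, which is close to the threshold at the lower dose (edgeR adjusted p = 0.0483).

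CPT1A passed as lower at 3.33 µg/g only, and the fibrinogen genes FGB and FGG at 33.3 µg/g only. At 3.33 µg/g CPT1A had 481 ± 143 CPM, against 921 ± 128 CPM with solvent (log2 fold change −0.94, SE 0.20, edgeR adjusted p = 0.0254). At 33.3 µg/g FGB had 2655 ± 641 CPM, against 5491 ± 1455 CPM (−1.05, SE 0.24, edgeR adjusted p = 0.0454). FGG had 2072 ± 451 CPM at that dose against 4296 ± 1118 CPM (−1.05, SE 0.23, edgeR adjusted p = 0.041). Solvent replicate 4, the highest library for FGB and FGG, enters these values, and the difference between the doses was not tested for any gene here. With 1 library left out, as few as 3 abundant genes passed at 3.33 µg/g and 2 at 33.3 µg/g. Whether CPT1A, FGB and FGG were among them is not given here.

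Of the 100 variable genes 98 were tested, and 4 (4.08%) passed at 3.33 µg/g, against 1.38% of all genes tested. They were LOC107319873, LOC107317565, LOC107317352 and ZP1. At 33.3 µg/g the 3 loci (3.06%) passed, against 1.08% of all genes tested. All were higher than with solvent. The 100 were chosen for their spread in the same solvent libraries that are the reference here, so nothing is read from these shares. Without solvent replicate 3, 8 passed at 33.3 µg/g, and the share of all genes in that fit is not given here. LOC107319873 averaged 13270 CPM at 3.33 µg/g and 11019 CPM at 33.3 µg/g, against 44.0 CPM with solvent. The other 94 missed the threshold at both doses, among them ORM2 with 9.58 and 1.85 CPM at the doses against 32.6 CPM with solvent (edgeR adjusted p = 0.376 and 0.0653).

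Among the 299 list genes tested, 10 (3.34%) passed at 3.33 µg/g and 7 (2.34%) at 33.3 µg/g, against 1.38% and 1.08% of all genes tested. The lists include an oestrogen response list and were chosen with earlier results known, so nothing is read from these shares. The cell type lists other than those of hepatocytes contributed 2, both at 3.33 µg/g only. They were 1 of 20 stellate and mesenchymal genes tested and 1 of 11 macrophage genes tested. HGF, the growth factor that stellate cells send to hepatocytes, was at 47.1 ± 6.996 CPM at 3.33 µg/g against 27.5 ± 4.64 CPM with solvent, and the complement gene C1QB of macrophages at 14.9 ± 3.94 against 8.15 ± 1.64 CPM. CEBPB, a factor of the acute phase response, rose at both doses, to 177 ± 9.04 and 191 ± 34.1 CPM against 73.8 ± 6.10 CPM with solvent, and FABP7, a fatty acid carrier, to 102 ± 27.2 and 65.6 ± 17.1 CPM against 17.6 ± 2.56 CPM. CEBPA fell at 3.33 µg/g, to 220 ± 56.2 CPM against 364 ± 55.1 CPM, and XDH rose at 33.3 µg/g, to 136 ± 25.2 CPM against 70.0 ± 13.8 CPM. The list count was 6 at 3.33 µg/g without replicate 3 of that dose. At 33.3 µg/g it was 4 without solvent replicate 1 or 2 or without replicate 2 or 3 of that dose, and 11 without its replicate 4.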

How the data were processed

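The deposited table holds estimated counts per transcript, which the authors made with kallisto, per the submitters' processing notes; none of the sources used here gives its version, index or build. Its 47418 entries, without normalization, were summed per NCBI gene ID and rounded, which gave 20308 IDs, of which 12972 have a symbol, 5928 a locus number and 1408 no match in the gene table of the Coturnix japonica 2.1 assembly, used for names, chromosomes and gene order. Strand, and how reads of near-identical genes were divided, are not stated. Of all values, 21 are written in rounded form. Solvent libraries held 21726180 to 32140105 estimated counts, and the Wilson intervals at 95% and the floor of 3 counts cover counting error only.

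CPM are counts on library totals scaled by TMM factors over all 15 libraries, in edgeR 4.0.16 (R 4.3.3). Spread is the SD of log2(CPM + 1) for genes with a mean of at least 5 CPM. Doses were compared with solvent in 1 quasi-likelihood model of the 15 libraries by group (filterByExpr, robust), two-sided, with Benjamini-Hochberg adjustment at 0.05, for 14508 genes; SE is the absolute log2 fold change over the square root of F. The steps were tested on simulated data. DESeq2 1.42.0, RLE factors, library totals only, other minima and pseudocounts, a replicate block and each library left out were the alternatives.

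Named by rule were the 25 genes with the largest mean, the 4 marker genes, up to 4 highest members of each of 27 lists and members at 0, the 30 symbols with the largest and 5 with the smallest SD, and 10 without a symbol. Some genes that the rule names are not reported here, though they stay in the counts. Other members named were chosen after their values were seen. Members and lists were chosen with earlier results of these data known. The 10 solvent pairs all differed by more than sampling noise (chi-square divided by its degrees of freedom at least 27.0).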

Additional observations from a re-analysis of the deposited data

Results flagged for a closer look

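Of 159 named genes, the list sums and the level of chromosome Z, 28 values had 1 solvent library that stood apart from the other 4 by Dixon's ratio at the 95% level, a rule that chance meets in about 5% of groups and that 6.85% of all 10204 genes of at least 5 CPM met. The genes with the largest SD were named for their spread, so some of these were bound to appear. No cause was tested for any of them.

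Replicate 1 was lowest for COX1 (17629 CPM, the others 20884 to 22030), COX2 (5329 CPM, the others 6270 to 6640) and the summed mitochondrial genes (62530 CPM). It was highest for GM2A (715 CPM), CCDC69 (22.2 CPM), DNAAF3, an assembly factor of ciliary dynein (31.8 CPM, the others 2.41 to 10.8), and the Z locus LOC107306607 (27.4 CPM, the others at most 0.112).

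Replicate 2 was highest for GCG (47.5 CPM), INS (2.72 CPM), the summed pancreas list (54.0 CPM, the others 1.47 to 9.41) and PDE2A, a cyclic nucleotide phosphodiesterase (25.97 CPM, the others 0.822 to 2.13).

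Replicate 3 was highest for EEF1A1 (6782 CPM), ZP1 (44.8 CPM), LOC107319873 (194 CPM), LOC107317565 (236 CPM), LOC107317352 (63.5 CPM) and UPP2, a uridine phosphorylase (46.7 CPM, the others 4.25 to 12.2). It was lowest for the level of chromosome Z, at −0.27 on the log2 scale.

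Replicate 4 was highest for SLC4A1 (132 CPM), TUBB1 (26.5 CPM), GATA2, a factor of blood progenitors (6.17 CPM, the others 3.99 to 4.39), SUN3 (73.4 CPM) and CD7, a lymphocyte surface protein (55.9 CPM, the others 1.93 to 15.3). Replicate 5 was highest for IRF7 (43.3 CPM), the summed interferon list (338 CPM), SST (8.07 CPM), UNC79, a subunit of a sodium leak channel complex (26.5 CPM, the others 0.756 to 7.19), and LOC107319648 (48.4 CPM, the others 0.520 to 12.7).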

How the results depend on the processing

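Genes holding 50% of the counts were 214, and 352 without albumin. Genes with an SD over 1 were 101, 36 with a minimum of 20 CPM and 46 with a pseudocount of 5, since both settings drop or damp low genes. DESeq2 called 8 abundant genes at 33.3 µg/g (edgeR 5), 7 variable genes at 33.3 µg/g (3), 26 list genes at 3.33 µg/g (10) and 18 at 33.3 µg/g (7); the cause was not tested. With 1 library left out, the lower dose called 3 to 6 abundant, 3 to 5 variable and 6 to 14 list genes, and the higher dose 2 to 7 abundant, 3 to 8 variable and 4 to 11 list genes. Apart from the replicate block, given next, the remaining settings moved no count by over 1.5 times.

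The replicate numbers showed no pairing: residuals correlated above 0.1 in 1 of 15 pairs with the same number, and 0 libraries were closest to one of that number. With a replicate block, abundant genes called were 3 and 2 at the lower and higher dose, variable genes 4 and 4, and list genes 7 and 6.

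Among 159 named genes, 3 levels of 1113 moved by more than 1 SD, those of MBNL3, RLIM and MFF on library totals only, all chosen for their small SD. Shares per coding length were not run, because the gene table gives no coding lengths. Depth limits statements below 0.0236 CPM.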

Other observations

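Of all gene IDs, 9 had at least 3 CPM in a single solvent library and at most 0.5 CPM in the other 4. They lay in replicate 2 for 5 of them, among which GCG and NKX6-1 belong to the islet, and the locus LOC107319420 had 7.59 CPM. TBX1, a T-box factor of the pharynx and heart field, had 4.66 CPM in replicate 4 and at most 0.473 CPM in the others. LOC107306607 on chromosome Z had 27.4 CPM in replicate 1, at most 0.112 CPM in the other solvent libraries, and was over 1 CPM in 1 dosed library, at 18.4 CPM.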
